A study of Mus musculus with 12 samples.

Results

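The genes described here encode chitinase-like proteins and other secreted products, grouped by name as type 2 effectors: Chi3l1, Chi3l3, Chi3l4, Chia, Retnla and Timp1. They were chosen by symbol, not by their values, and all 6 were found among the 33924 genes of one kind of count table and the 22609 genes of the other. Their RNA was measured in whole lung of mice that received house dust mite extract, made from Dermatophagoides farinae (D.f.), or buffered saline (PBS). All mice were of strain background B6, 6 to 8 weeks old, and RNA was taken 14 to 16 h after treatment. The 12 libraries came as 2 sets, each of 6. All mice of the RNase III set were wild type: PBS (replicates 1 and 2), D.f. extract without RNase III (3 and 4) and D.f. extract with RNase III (5 and 6), a nuclease for double-stranded RNA. The knockout set has wild-type mice that received PBS (1) or D.f. extract (3 and 4) and TLR3MAVS double knockout mice that received PBS (2) or D.f. extract (5 and 6). Tlr3 senses double-stranded RNA in endosomes, and Mavs relays the signal of RNA helicase sensors in the cytosol. No group received PBS with RNase III, and the sources used here do not give the knockout alleles, the route or the dose. The labels do not say whether replicates were separate animals, so p-values rest on the variation among the libraries of a group, and that variation may be technical.

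Chi3l1 (also Chil1, BRP-39), Chi3l3 (Chil3, Ym1) and Chi3l4 (Chil4, Ym2) keep the fold of the glycosyl hydrolase 18 family but do not cleave chitin, whereas Chia (acidic mammalian chitinase, AMCase) is an active enzyme. Retnla encodes resistin-like molecule alpha (Fizz1), a small secreted protein of alternatively activated macrophages and airway epithelium, and Timp1 encodes a tissue inhibitor of metalloproteinases. Interleukins 4 and 13, acting through Stat6, are the textbook inducers of Chi3l3, Chi3l4, Chia and Retnla in the lung, while Chi3l1 and Timp1 also respond to inflammatory cytokines. Chi3l3 is in addition a constitutive product of alveolar macrophages.

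Each library of the RNase III set held 17754518 to 25714074 assigned reads, and each of the knockout set 15687699 to 20945618. Levels below are read counts scaled to library size (CPM), with library sizes scaled by the TMM method within each set. Tlr3 was at 10.0 to 14.8 CPM in the 3 knockout libraries and 42.4 to 156 CPM in the 3 wild-type libraries beside them, and Mavs at 2.35 to 3.09 against 32.2 to 36.4 CPM. Lung markers were present in all 12 libraries: the summed level of alveolar type 2 genes was 9785 to 18104 CPM and that of lung endothelial genes 2042 to 3651 CPM. The 2 PBS libraries of the RNase III set differed in heart and fat markers, with cardiac muscle sums of 190 CPM in replicate 1 and 1453 CPM in replicate 2 and adipose sums of 16.7 and 222 CPM. The knockout D.f. libraries differed in neutrophil markers, whose sum was 96.9 CPM in replicate 5 and 317 CPM in replicate 6. The sets differed in airway secretory markers, with sums of 14380 to 28690 CPM in the RNase III set and 1347 to 2251 CPM in the knockout set.

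Chi3l3, Chi3l4 and Chia lie close together on chromosome 3. In NCBIM37 (GENCODE M1) Chia covers chr3:105916147-105935038 on the plus strand, Chi3l3 chr3:105950472-106022425 and Chi3l4 chr3:106004408-106022425, both on the minus strand. The gene model of Chi3l3 spans Chi3l4 and shares 68 exon bases with it. Their transcripts are 94.7% identical over 1535 aligned bases, and 54 of the 1440 windows of 100 bases in Chi3l4, the length of the reads, occur unchanged in Chi3l3. Reads from the shared stretches, 3.75% of those windows, could not be counted for either gene with certainty. How far this lowered the Chi3l4 values was not tested. Chi3l1 is at chr1:136078753-136086758, Retnla at chr16:48842665-48844574 and Timp1 at chrX:20447292-20451861, each on the plus strand.

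The 250 bases before the start of Chi3l3 and Chi3l4 are shown because the pair share 201 of 221 aligned bases (91.0%) there, while the RNA of Chi3l3 was abundant and that of Chi3l4 close to 0. Those of Chi3l1 and Retnla, which rose with D.f. extract in wild-type lung, are also shown. Timp1 rose too, but its window is not shown and held no match to the motifs named below. The windows shown thus do not represent all genes that rose. Sequences are from RefSeq (GRCm38.p6), which had an entry for all 6 genes, and run 5′ to 3′ on the strand of the gene. The windows are chr3:106167565-106167814 and chr3:106219480-106219729 on the minus strand, and chr1:134181906-134182155 and chr16:48842359-48842608 on the plus strand. Capitals mark matches, searched on both strands, to TTCNNNGAA (STAT-type), TTC and GAA separated by 4 bases (STAT6-type), TTGCNNAA (C/EBP-type), TATAAA and the NF-kB motif.
Chi3l3: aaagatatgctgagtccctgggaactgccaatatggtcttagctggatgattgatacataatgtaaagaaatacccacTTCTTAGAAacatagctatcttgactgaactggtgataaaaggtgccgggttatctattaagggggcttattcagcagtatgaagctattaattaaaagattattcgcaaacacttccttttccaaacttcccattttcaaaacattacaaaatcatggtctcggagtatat
Chi3l4: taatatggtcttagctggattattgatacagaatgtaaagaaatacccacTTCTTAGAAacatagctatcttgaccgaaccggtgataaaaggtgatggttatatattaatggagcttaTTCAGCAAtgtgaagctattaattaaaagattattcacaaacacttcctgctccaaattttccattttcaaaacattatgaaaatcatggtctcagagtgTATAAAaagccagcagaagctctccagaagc
Chi3l1: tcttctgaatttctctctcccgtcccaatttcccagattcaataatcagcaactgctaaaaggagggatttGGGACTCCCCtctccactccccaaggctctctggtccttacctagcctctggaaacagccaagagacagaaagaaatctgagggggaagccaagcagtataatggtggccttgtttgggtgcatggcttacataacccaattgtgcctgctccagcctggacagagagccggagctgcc
Retnla: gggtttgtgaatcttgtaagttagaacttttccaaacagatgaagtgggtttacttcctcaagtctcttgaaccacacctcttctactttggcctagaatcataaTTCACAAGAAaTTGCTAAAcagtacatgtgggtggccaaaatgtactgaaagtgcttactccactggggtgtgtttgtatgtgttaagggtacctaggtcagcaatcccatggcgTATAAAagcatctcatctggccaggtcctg

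Both Ym genes carry the same STAT-type letters ttcttagaa, at -172 to -164 from the start in Chi3l3 and at -200 to -192 in Chi3l4, a motif found in 7.02% of 32851 mouse promoter windows. Chi3l4 has a C/EBP-type match and a TATAAA that this window of Chi3l3 does not hold. The Chi3l3 window ends at the place aligned with that TATAAA, so whether Chi3l3 has one there cannot be read from it. Retnla has the STAT6-type match at -145 to -136 (5.85% of promoters), next to a C/EBP-type match at -134 to -127 (9.56%), and a TATAAA at -30 to -25 (12.4%). In Chi3l1 the NF-kB match lies at -179 to -170 (7.25%). Chia holds a TATAAA at -43 to -38, and none of the motifs was found in the window of Timp1. The interferon-stimulated response element, searched as GAAA repeated after 2 bases (2.98% of promoters) and the AP-1 motif TGANTCA (6.75%) were in none of the 6 windows. These are matches of letters, not measured binding sites.

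Scaled per kilobase of exon, so that genes can be ordered by level, PBS lung of the RNase III set held most Retnla (607 CPM per kb), then Chi3l3 (321), Chi3l1 (178), Chia (32.5), Timp1 (15.5) and Chi3l4 (0.511) by group means. The PBS libraries of Retnla (305 to 908 CPM per kb) overlapped those of Chi3l3 (314 to 328). Those of Chia (20.4 to 44.5) overlapped those of Timp1 (9.95 to 21.0). Each of these pairs changed order between PBS replicate 1 and replicate 2, and the order was not tested. With D.f. extract in the same set the order became Retnla (1735 CPM per kb), Chi3l1 (685), Timp1 (172), Chi3l3 (88.1), Chia (16.2) and Chi3l4 (1.58). In the knockout set Retnla was not the most abundant: in wild-type lung with D.f. extract Chi3l1 stood at 428 CPM per kb, Retnla at 126, Timp1 at 110 and Chi3l3 at 87.6. The 2 libraries of Retnla (112 to 141 CPM per kb) overlapped those of Timp1 (81.0 to 140), which overlapped those of Chi3l3 (82.6 to 92.6). Retnla was above Timp1 in both libraries. Timp1 was above Chi3l3 in replicate 3 and below it in replicate 4, and the order was not tested.

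**Figure D1:**
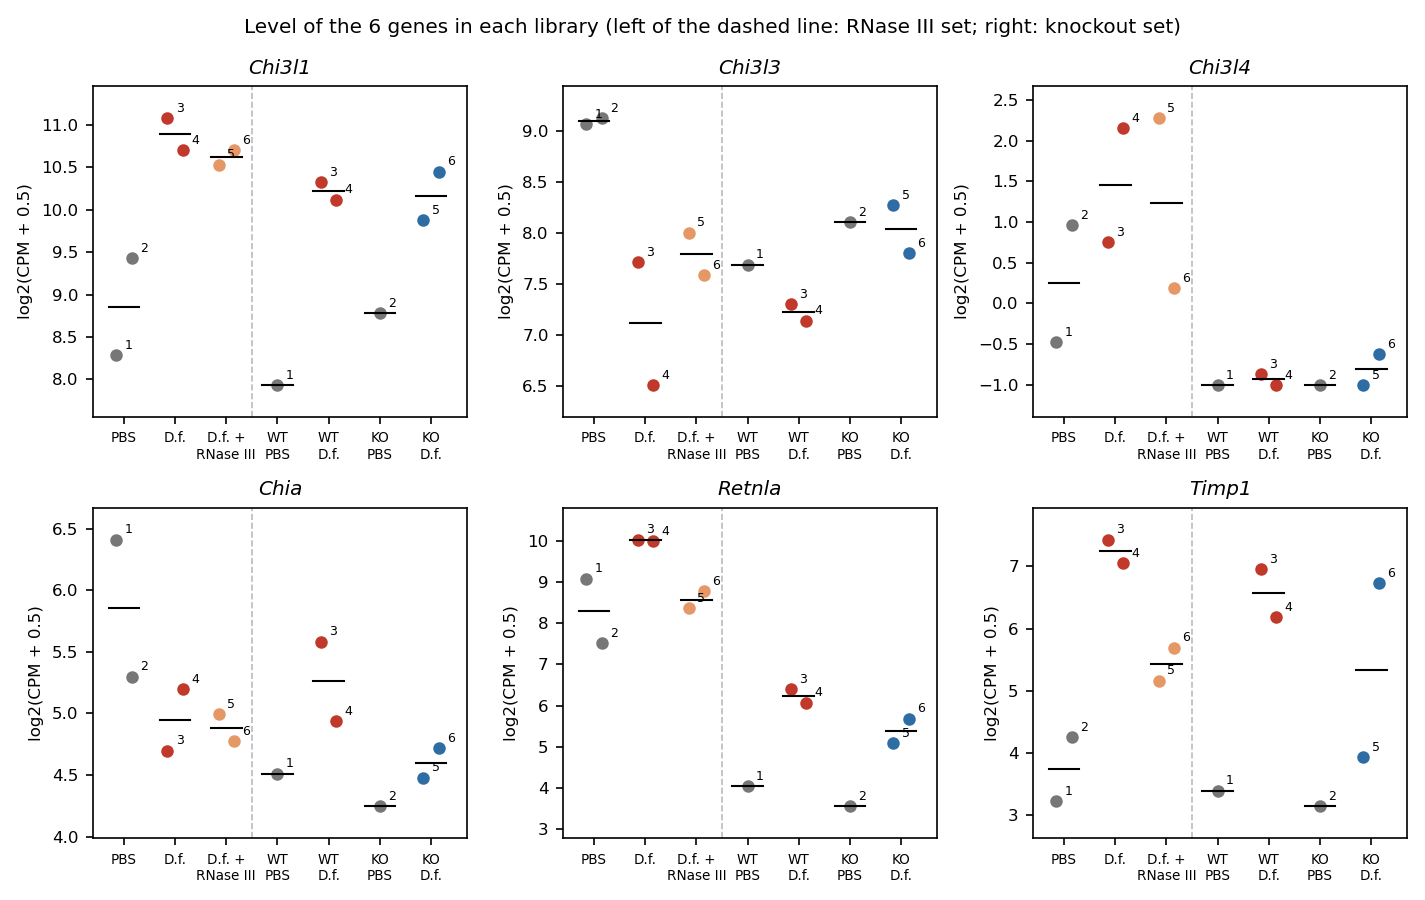
Each panel plots 1 gene, with log2(CPM + 0.5) on the vertical axis and the 7 groups on the horizontal axis (WT, wild type; KO, knockout). Points are libraries, numbered by replicate, and bars are group means on that scale. Timp1 in knockout lung with D.f. extract is split between 14.7 CPM in replicate 5 and 105 CPM in replicate 6.

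D.f. extract raised Timp1 and Chi3l1 and lowered Chi3l3 in the RNase III set, where 3 of the 6 genes passed the test (edgeR's quasi-likelihood test, Benjamini-Hochberg adjusted over 17165 genes). Over all genes 11.0% were called in this comparison, 6.51% higher and 4.50% lower. Timp1 was at 8.84 and 18.6 CPM in the PBS libraries and at 172 and 132 CPM in the D.f. libraries. Every D.f. library stood above both PBS libraries, and the rise was 11.0-fold (log2 fold change 3.46 ± 0.36 SE, adjusted p = 0.00182, n = 2 per group, edgeR). Without PBS replicate 2 the log2 fold change was 4.11. In whole lung, more cells of a type and more RNA per cell cannot be told apart.

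Chi3l1 was measured at 312 and 688 CPM with PBS and at 2169 and 1672 CPM with D.f. extract. The groups did not overlap although the PBS libraries themselves differed 2.21-fold, and the rise was 3.84-fold (log2 fold change 1.94 ± 0.35, adjusted p = 0.0151, edgeR). Without D.f. replicate 3 or 4 the adjusted p was 0.0968 or 0.0679, and leaving out 1 library moved the log2 fold change between 1.48 (without PBS replicate 1) and 2.62 (without PBS replicate 2).

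Chi3l3 moved the other way. Its PBS libraries were close together, at 535 and 557 CPM, and its D.f. libraries were at 209 and 90.6 CPM, a 3.64-fold fall (log2 fold change -1.87 ± 0.36, adjusted p = 0.0191, edgeR). Leaving out D.f. replicate 3 moved it to -2.60 and leaving out D.f. replicate 4 to -1.39, and both fits called it. Among 11 tested alveolar macrophage markers, Ear2, Fabp1 and Mrc1 fell and Itgax rose in the same comparison. The summed level of that list was 554 to 591 CPM with PBS and 364 to 550 CPM with D.f. extract, and D.f. replicate 4, the lowest in Chi3l3, was also the lowest in this sum. The part of these cells in the fall of Chi3l3 was not tested.

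Retnla was at 543 and 182 CPM with PBS and at 1050 and 1025 CPM with D.f. extract. The D.f. libraries agreed within 1.02-fold and both stood above the PBS libraries, which differed 2.98-fold. The log2 fold change of 1.52 ± 0.44 did not pass (adjusted p = 0.0755, edgeR). It was 2.51 (adjusted p = 0.000445) without PBS replicate 1 and 0.93 (adjusted p = 0.0160) without PBS replicate 2, so its size depends on which PBS library is kept. Replicate 2, the library rich in heart and fat markers, was the lower in Retnla.

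Chia was at 84.7 and 38.9 CPM with PBS and at 25.4 and 36.3 CPM with D.f. extract. The D.f. libraries were lower without overlap, a 2.00-fold difference (SE of 0.35 on the log2 scale) that did not pass (adjusted p = 0.120, edgeR). The log2 fold change was -1.46 and called without PBS replicate 2 but -0.33 without PBS replicate 1 (adjusted p = 0.315), and DESeq2 and the fit without a filter on low counts called it. Chi3l4 had 4 and 32 reads with PBS and 30 and 91 with D.f. extract, with groups that overlapped (adjusted p = 0.401). The mucous cell gene Clca3 varied in the same way within groups, at 0.110 and 49.7 CPM with PBS and 62.3 and 122 CPM with D.f. extract.

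Markers of incoming leukocytes moved in the same comparison. Of 9 tested neutrophil markers 4 rose (Cd177, Csf3r, Cxcr2 and Il1r2), and the sum of the list was 44.0 to 165 CPM with PBS and 253 to 389 CPM with D.f. extract. Elane was at 0 in most libraries and Mpo in some, whereas S100a8 and S100a9 were detected in all 12. Monocyte and interstitial macrophage genes, among which Ccr2, Ly6c2 and Ms4a4c rose, summed to 279 to 338 and 584 to 630 CPM. The eosinophil peroxidase gene Epx was at 0 in all 12 libraries. How far these cells contribute to the rise of Timp1 and Chi3l1 was not tested.

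**Figure D2:**
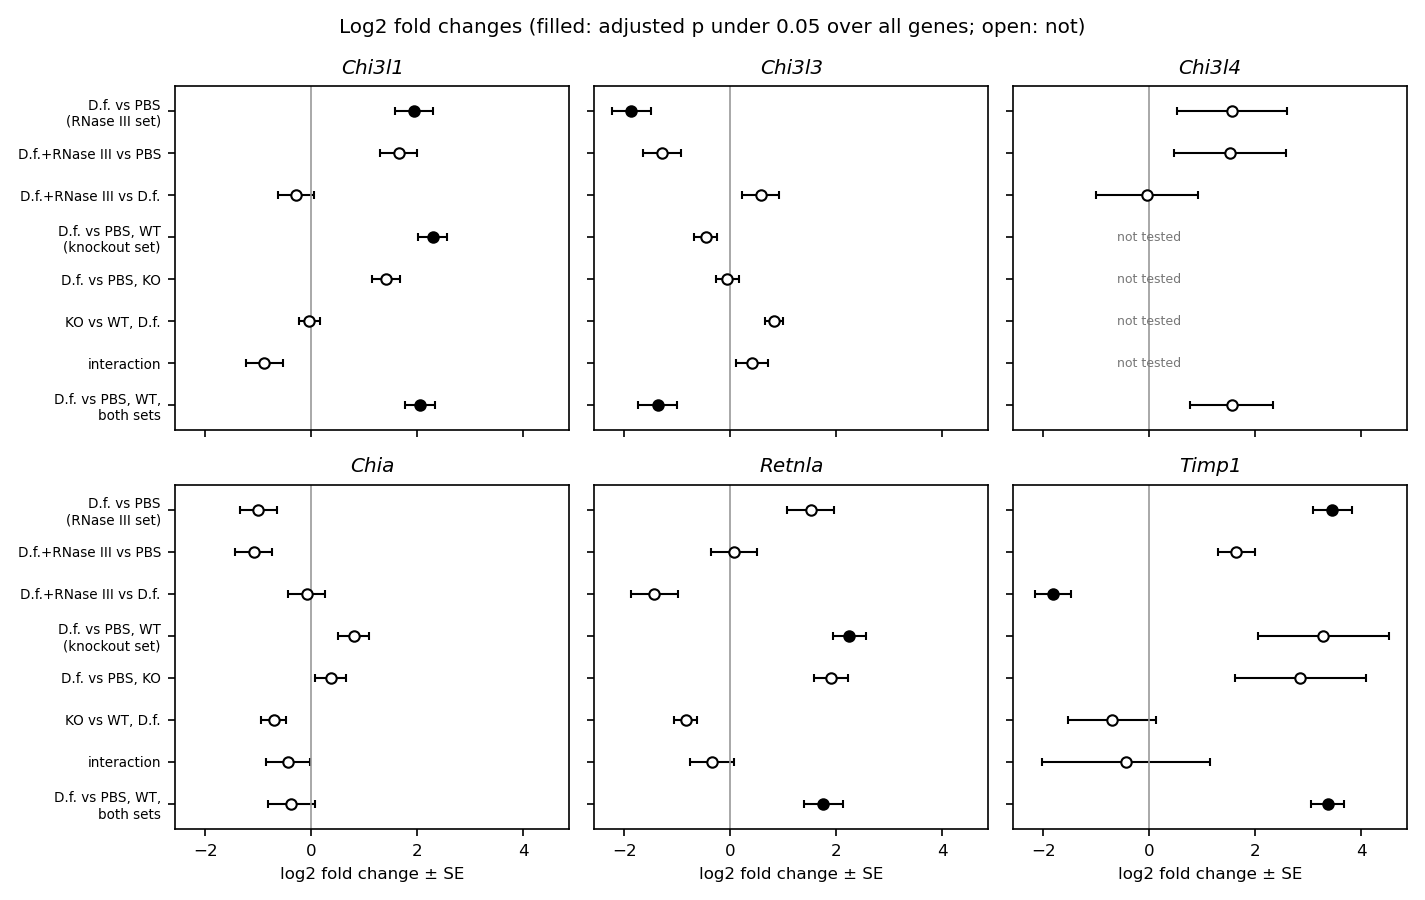
Each panel plots 1 gene, with the log2 fold change ± SE from edgeR on the horizontal axis and the 8 comparisons on the vertical axis. Filled points passed an adjusted p of 0.05 over all genes tested and open points did not. Chi3l1 and Timp1 lie right of 0 in all 5 comparisons of extract with PBS, while Timp1 lies at -1.81 for D.f. extract with RNase III against D.f. extract.

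Treating the extract with RNase III lowered Timp1 and left the other 5 genes without a call. Timp1 was at 35.3 and 51.3 CPM with D.f. extract and RNase III, below both D.f. libraries (172 and 132 CPM) and above both PBS libraries. Against D.f. extract the fall was 3.52-fold (log2 fold change -1.81 ± 0.34, adjusted p = 0.0214, edgeR), in a comparison that called 7.26% of all genes, 4.85% as lower and 2.41% as higher. The call did not hold when any 1 of the 4 libraries was left out (adjusted p 0.0958 to 0.216, log2 fold change -2.11 to -1.57) or when all 12 libraries shared a fit (adjusted p = 0.150). Heart and fat markers also split these groups: cardiac muscle sums were 250 and 226 CPM with RNase III against 540 and 1105 CPM without, and adipose sums 23.7 and 18.2 against 78.4 and 136 CPM. Of the 11 cardiac and 12 adipose genes tested, Myh7 was called, as higher with RNase III. The part of these tissues in the values of Timp1 and Retnla was not tested.

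Retnla followed the same order without passing. At 328 and 438 CPM it was below both D.f. libraries (1050 and 1025 CPM) and within the range of the PBS libraries (182 to 543 CPM). The log2 fold change against D.f. extract was -1.44 ± 0.44 (adjusted p = 0.107, edgeR), and it passed when either PBS library was left out of the fit (adjusted p 0.000975 and 0.000940).

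Chi3l1 differed little between the 2 kinds of extract. It was at 1483 and 1664 CPM with RNase III and 2169 and 1672 CPM without, and the log2 fold change was -0.29 ± 0.34 (adjusted p = 0.690, edgeR). Chi3l3, at 256 and 192 CPM with RNase III against 209 and 90.6 CPM without, gave 0.58 ± 0.35 (adjusted p = 0.395; 1.31 and adjusted p = 0.0464 without D.f. replicate 3), and Chia, at 31.3 and 26.8 against 25.4 and 36.3 CPM, gave -0.08 ± 0.35 (adjusted p = 0.926). Chi3l4 had 79 and 12 reads with RNase III, or 4.35 and 0.642 CPM, on either side of the D.f. libraries (1.19 and 3.96 CPM).

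Set against PBS, which shares its libraries with the first comparison, D.f. extract with RNase III called none of the 6 genes and 0.00583% of all genes (1 gene, with 835 at an unadjusted p under 0.05, edgeR). The values of Chi3l1 and Timp1 nevertheless lay above both PBS libraries, with log2 fold changes of 1.65 ± 0.35 for each gene (adjusted p = 0.812). Chi3l3 was lower without overlap at -1.29 ± 0.36 (adjusted p = 0.907), and so was Chia at -1.09 ± 0.35 (adjusted p = 0.960). Retnla was at 0.08 ± 0.44 (adjusted p = 0.988). DESeq2 called Chi3l1, Timp1 and Chi3l3 in this comparison (adjusted p 0.000171, 0.000548 and 0.0379), and without PBS replicate 2 edgeR called Chi3l1 (2.33), Timp1 (2.29) and Chia. Without PBS replicate 1 Chia was at -0.42 and Retnla at 1.07. The leukocyte sums with RNase III were 90.7 to 126 CPM for neutrophil and 311 to 318 CPM for monocyte and macrophage markers, within the PBS ranges.

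In wild-type lung of the knockout set, D.f. extract raised Chi3l1 and Retnla, 2 of the 5 genes tested, where 1.52% of 15294 genes were called and 1.38% as higher. Chi3l1 was at 245 CPM in the PBS library and at 1285 and 1114 CPM in the D.f. libraries, a 4.90-fold rise (log2 fold change 2.29 ± 0.28, adjusted p = 0.0331, edgeR). Retnla was at 15.9 CPM with PBS and at 84.1 and 66.8 CPM with D.f. extract, a 4.75-fold rise (2.25 ± 0.31, adjusted p = 0.0424, edgeR). Both calls rest on 1 PBS library that was assumed to vary like the replicated groups, and both were lost without wild-type D.f. replicate 3 or 4 (adjusted p 0.168 to 0.328).

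Timp1 had a larger fitted difference in this comparison but did not pass. It was at 10.0 CPM with PBS and at 124 and 71.9 CPM with D.f. extract, with a log2 fold change of 3.29 ± 1.24 (adjusted p = 0.273, edgeR). Its SE takes in the spread of the knockout D.f. libraries, and without knockout replicate 5 or 6 the same change was 3.29 ± 0.21 or 3.27 ± 0.25 and passed. Chi3l3 was at 206 CPM with PBS and at 157 and 140 CPM with D.f. extract (-0.47 ± 0.21, adjusted p = 0.337). Chia stood at 22.3 CPM with PBS and at 47.5 and 30.2 CPM with D.f. extract (0.80 ± 0.29, adjusted p = 0.262), higher and not lower as in the RNase III set. Leaving out knockout replicate 5 or 6 brought Chi3l3, lower, and Chia, higher, past the threshold as well. Chi3l4 had 0 to 3 reads per library in this set, at or below the 3 reads that a count of 0 allows (0.148 to 0.189 CPM, counting error only), and was not tested.

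The knockout libraries were examined 1 by 1 because they differed. With PBS the knockout library held 441 CPM of Chi3l1, 275 of Chi3l3, 18.5 of Chia, 11.2 of Retnla and 8.32 of Timp1, against 245, 206, 22.3, 15.9 and 10.0 CPM in the wild-type library. With 1 library per genotype this difference has no test. Knockout D.f. replicate 5 held 943 CPM of Chi3l1, 308 of Chi3l3, 21.8 of Chia, 33.4 of Retnla and 14.7 of Timp1. Replicate 6 held 1398, 222, 25.8, 50.8 and 105 CPM of the same genes. Replicate 6 was thus the higher in Chi3l1, Chia, Retnla and Timp1 and the lower in Chi3l3, and the gap was 7.16-fold for Timp1 and 1.18-fold to 1.52-fold for the others.

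Against the knockout PBS library none of the 5 genes passed, as none of 15294 genes did (0% called, 847 at an unadjusted p under 0.05, edgeR; DESeq2 called 36). Chi3l1 was higher in both D.f. libraries (log2 fold change 1.41 ± 0.26) and so was Retnla (1.91 ± 0.32), each with an adjusted p of 0.819. DESeq2 called both, and so did edgeR without knockout replicate 5 or without replicate 6. Timp1 was at 2.85 ± 1.24 with the same adjusted p. Leaving out replicate 5 gave 3.66 ± 0.24 for Timp1, which passed, and leaving out replicate 6 gave 0.82 ± 0.31 (adjusted p = 0.274), so that the size of its response in the knockout depends on which library is kept. Chi3l3 was at -0.05 ± 0.21 (adjusted p = 0.970) and Chia at 0.37 ± 0.29 (adjusted p = 0.843).

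**Figure D3:**
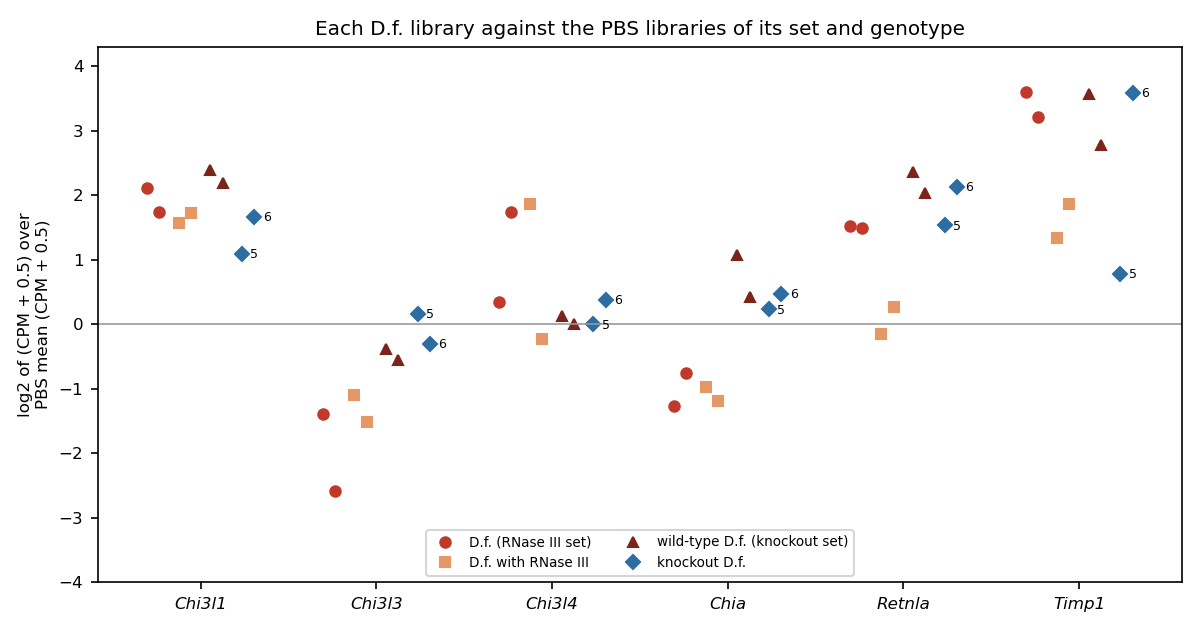
The vertical axis gives log2 of the ratio of (CPM + 0.5) in each library with extract to the mean of the PBS libraries of its set and genotype, for the 6 genes on the horizontal axis. Knockout D.f. libraries are numbered by replicate. For Timp1, knockout replicate 6 lies beside the wild-type D.f. libraries and replicate 5 below all of them.

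Knockout and wild-type lung were then compared directly, both with D.f. extract. None of the 5 genes was called, where 2.53% of all genes were (0.517% higher and 2.01% lower). Chi3l3 was higher in the knockout without overlap, at 308 and 222 CPM against 157 and 140 CPM (log2 fold change 0.83 ± 0.17, adjusted p = 0.0881, edgeR). Retnla was lower without overlap, at 33.4 and 50.8 against 84.1 and 66.8 CPM (-0.84 ± 0.22, adjusted p = 0.136), and Chia likewise, at 21.8 and 25.8 against 47.5 and 30.2 CPM (-0.71 ± 0.23, adjusted p = 0.199). The genotypes overlapped in Chi3l1 (-0.04 ± 0.20, adjusted p = 0.954) and in Timp1 (-0.70 ± 0.82, adjusted p = 0.722). Cardiac muscle sums were 133 and 196 CPM in these knockout libraries against 472 and 704 CPM in the wild-type ones, with 3 of 10 genes called lower (Myl4, Ryr2 and Tnnt2), and 155 against 870 CPM with PBS. The part of heart tissue in these differences was not tested.

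Leaving out either knockout library changed several of these calls, and that group then kept 1 library, assumed to vary like the others. Which library was kept decided the call of Timp1 only. Chi3l3, Retnla and Chia were called without replicate 5 and also without replicate 6, in both cases with the directions above. Timp1 was at 0.10 ± 0.16 without replicate 5 (adjusted p = 0.731) and at -2.74 ± 0.24 without replicate 6 (called). DESeq2 called Chi3l3 (adjusted p = 0.000780) and Retnla (adjusted p = 0.0215). Replicate 6 also held more of the neutrophil markers (317 CPM, against 96.9 CPM in replicate 5 and 87.4 to 143 CPM in the wild-type D.f. libraries), and their part in its Timp1 level was not tested.

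**Figure D4:**
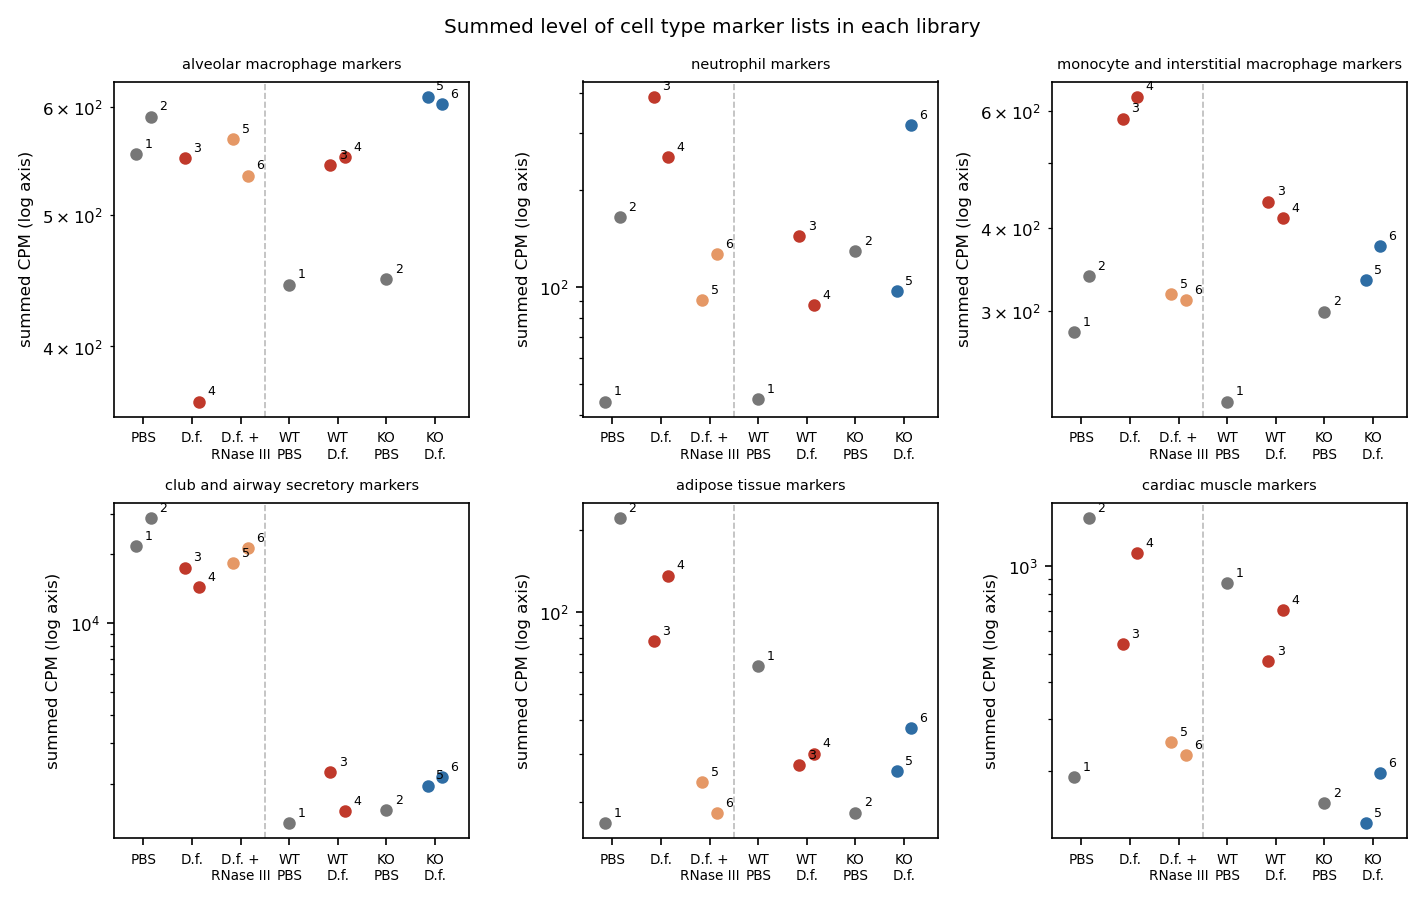
Each panel plots the summed CPM of a marker list on a log axis for the 7 groups, with points as libraries numbered by replicate. Neutrophil markers separate knockout D.f. replicate 6 (317 CPM) from replicate 5 (96.9 CPM), and airway secretory markers separate the sets.

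The difference between genotypes in the response to D.f. extract, tested as an interaction, was called for none of the 5 genes and for 0.00654% of all genes (1 gene, with 1481 at an unadjusted p under 0.05, edgeR). Chi3l1 came nearest, at -0.88 ± 0.35 on the log2 scale (unadjusted p = 0.0482, adjusted p = 0.510). Its level was higher in the knockout PBS library than in the wild-type one (441 against 245 CPM), and the D.f. levels overlapped. Without knockout replicate 5 or 6 the interaction of Chi3l1 was called (-0.63 or -1.17), and without replicate 6 those of Chi3l3 (0.66) and Timp1 (-2.44) were too.

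Over the 7 wild-type libraries of both sets, with a term for the set, D.f. extract changed 4 of the 6 genes, where 14.7% of 15481 genes were called, 8.53% higher and 6.18% lower. This fit reuses the wild-type libraries described above. Timp1 rose 10.4-fold (log2 fold change 3.37 ± 0.31, adjusted p = 0.000370, edgeR), Chi3l1 4.16-fold (2.06 ± 0.28, adjusted p = 0.00263) and Retnla 3.39-fold (1.76 ± 0.37, adjusted p = 0.0175). Chi3l3 fell 2.58-fold (-1.37 ± 0.37, adjusted p = 0.0426), and this call was kept in 1 of the 6 fits that left out a library, the one without D.f. replicate 4 of the RNase III set. That of Retnla was at 2.36 without PBS replicate 1 and was lost without D.f. replicate 3 or 4 of that set (adjusted p = 0.0600 or 0.0513). Chia (-0.38 ± 0.44) and Chi3l4 (1.56 ± 0.79) did not pass. Without the set term Timp1 alone was called.

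Retnla differed in level between the sets. It was 182 to 1050 CPM in the RNase III set and 11.2 to 84.1 CPM in the knockout set, so that the lowest library of the one stood above the highest of the other. In a test of the set over the 7 wild-type libraries, added after the levels had been seen, Retnla was 17.5-fold lower in the knockout set (log2 difference -4.13 ± 0.41, adjusted p = 0.000463, edgeR), where 21.9% of all genes differed. Chi3l1 was 1.86-fold lower (-0.90 ± 0.27, adjusted p = 0.0494). Chi3l4 was called lower as well, with 4 to 91 reads per wild-type library in the RNase III set and 0 or 1 in the knockout set, too few for a fold to be given. The count tables behind this test differ: those of the RNase III set list 33924 genes, those of the knockout set 22609. Reads without a feature made up 27.0% to 34.2% per library of the former and 37.3% to 40.0% of the latter. How far counting contributes to the set differences of Retnla, Chi3l1 and Chi3l4 was not tested. Chi3l3, Chia and Timp1 were not called. Airway secretory markers moved with the set in the same direction, Scgb1a1 from 11836 to 24276 CPM in one and 1034 to 1716 CPM in the other, and their part in the Retnla difference was not tested.

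A difference between the sets in the response to extract was not called for any member. The set-by-extract interaction, also added afterwards, was 1.81 ± 0.63 for Chia (unadjusted p = 0.0233, adjusted p = 0.826, edgeR) and 1.41 ± 0.55 for Chi3l3 (unadjusted p = 0.0362, adjusted p = 0.867). No gene passed that test (0% called, 856 at an unadjusted p under 0.05).

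Other genes of these pathways were described in 7 lists, chosen with earlier results of these data known. Over all genes, D.f. extract against PBS in the RNase III set called 6.51% higher and 4.50% lower. D.f. extract with RNase III against D.f. extract called 2.41% higher and 4.85% lower. Of 11 tested genes of interleukin 4 and 13 signalling, 4 rose with D.f. extract in the RNase III set: Socs1, a feedback inhibitor of cytokine receptors, from 4.28 to 30.3 CPM on average (log2 fold change 2.82 ± 0.35), the receptor chains Il13ra1 (0.91 ± 0.12) and Il2rg (1.20 ± 0.18), and the kinase Jak3 (0.75 ± 0.19). Socs1, Il13ra1 and Il2rg were lower with RNase III than without. The list's median was 0.45 beside -0.01 over all genes. The cytokine genes themselves were at trace level: Il4 and Il13 did not exceed 0.181 CPM in any library. In the knockout set, wild-type lung raised Il2rg and Socs1, and Socs1 was lower in knockout than in wild-type lung with D.f. extract (6.36 against 23.5 CPM, log2 fold change -1.89 ± 0.23, adjusted p = 0.0258, edgeR).

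Genes of alternative macrophage activation did not move one way. Of 15 tested, Arg1, an arginine-degrading enzyme (2.32 ± 0.27), and Pdcd1lg2 (1.75 ± 0.40) rose with D.f. extract in the RNase III set, while the mannose receptor Mrc1 (-1.43 ± 0.21), the lectin Mgl2 (-2.24 ± 0.17) and the scavenger receptor Cd163 (-2.13 ± 0.45) fell, as Chi3l3 did. The list's median was 0.36. With RNase III, Mgl2 and Mrc1 were higher and Arg1 lower than with D.f. extract alone. In knockout lung with D.f. extract, Mrc1 (166 against 83.6 CPM), Mgl2 (22.2 against 7.27 CPM) and Cd163 (16.9 against 2.57 CPM) were above wild type and all 3 were called, the direction in which the uncalled values of Chi3l3 lay. Mrc1 also counts among the alveolar macrophage markers.

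Of 15 tested genes on the type 2 epithelial list 4 rose in the RNase III set: the chemokine Ccl11 (1.36 ± 0.29), Clca1 (1.54 ± 0.22), the anion exchanger Slc26a4 (2.20 ± 0.42) and the phospholipase Pla2g4c (1.98 ± 0.39). The median of the list was 1.26. Ccl11 and Clca1 were lower with RNase III. Clca1 was listed by its symbol, and its call is not one of the mucous cell gene, which the count tables name Clca3. The mucous cell gene Clca3, a separate gene from Clca1 in the count tables, did not pass (1.88 ± 1.37, adjusted p = 0.446, edgeR). Neither did the mucin Muc5ac (1.33 ± 0.55, adjusted p = 0.182, edgeR). None of 13 tested was called in the knockout set in any comparison, where 0% to 2.53% of all genes were called.

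Among the metalloproteinases and inhibitors tested beside Timp1, the proteinases Adamts4 (2.58 ± 0.35), Mmp13 (1.62 ± 0.41) and Mmp14 (0.71 ± 0.12) rose with D.f. extract in the RNase III set. Timp2, another inhibitor, was lower (-0.62 ± 0.15, adjusted p = 0.0450, edgeR), opposite to Timp1. None of the 17 tested in the knockout set was called there, where the comparisons called 0% to 2.53% of all genes. Of 6 genes for binding partners and receptors, the tetraspanin Cd63, a partner of Timp1, rose in the RNase III set (0.87 ± 0.14). The other glycosyl hydrolase 18 genes (Ctbs, Chid1 and Ovgp1 were tested) and the other resistin genes (Retn and Retnlg) gave no call there. In the comparisons of D.f. extract with RNase III against PBS and of D.f. extract against PBS in the knockout, none of the 7 lists held a called gene. Over all genes, 0.00583% and 0% were called in these comparisons, so the lists are not set apart.

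Genes whose pattern was most like that of each member were found by Pearson's r of log2(CPM + 0.5) over the 12 libraries, after subtraction of the set mean, among 13498 genes. These are descriptions over libraries that share groups. Timp1 was most like Sdc4, a cell surface proteoglycan (r = 0.987), Steap4 (0.978) and Slc39a1 (0.978). Sdc4 too was split in knockout lung with D.f. extract, at 229 and 353 CPM. Chi3l1 was most like Lcn2, a siderophore-binding protein (0.948), Scarb2 (0.923) and Gm11428 (0.919), with Lcn2 at 342 to 1281 CPM in knockout D.f. libraries. Chi3l3 was most like Aldh1a1, a retinaldehyde dehydrogenase (0.958), Gsta3 (0.955) and Ubl3 (0.953). Retnla was most like Ints2 (0.973), Pkib (0.955) and Gca (0.955), although Ints2 ranged only from 23.5 to 31.5 CPM. Chia gave Hist2h2bb (0.880), Adamts15 (0.866) and Lrrc26 (0.859), and Chi3l4, mostly near 0, gave Muc5ac (0.807), Zfp330 (0.807) and Ccdc67 (0.794). Within the knockout set, where Chi3l4 had 0 to 3 reads, r was 0.061 for Zfp330 and -0.477 for Ccdc67, against 0.952 and 0.901 within the RNase III set. Among the members themselves Timp1 ran with Chi3l1 (0.873) and Retnla (0.821) and against Chi3l3 (-0.729).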

How the data were processed

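RNA from whole lung was sequenced as 100-base single-end reads from TruSeq total RNA libraries, per the labels' protocols, on an Illumina HiSeq, per the series' design text. Reads were mapped to mm9 with TopHat 2.0.8b and counted with HTSeq, per the submitters' processing notes. The sources used here do not give the version, annotation or strand setting of HTSeq, so reads of a gene and of an overlapping or antisense gene cannot be told apart. The deposited tables hold whole-number read counts by gene that the authors had not normalized. HTSeq's lines for unassigned reads (no feature 27.0% to 40.0%, not unique 36.8% to 44.6%) stayed out of library sizes and tests.

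Groups came from the titles. Tests used edgeR 4.0.16 in R 4.3.3 (TMM, filterByExpr, glmQLFit, glmQLFTest) on all genes of a set, with 3 (RNase III set) or 2 (knockout set) residual degrees of freedom and an adjusted p of 0.05 as threshold. DESeq2 1.42.0, RLE size factors, no filter, 1 fit over 12 libraries and leaving out each library were tried as alternatives. The steps were tested on simulated data. The members, lists and comparisons were chosen with earlier results of these data known. Named genes were the 6 members, up to 4 genes with the smallest p per list, called genes where they numbered 5 or fewer, and 3 genes of most like pattern per member, taken among genes whose mean log2 CPM reached 1. Clca3, Scgb1a1, Epx, Il4, Il13 and Muc5ac were named outside this rule after their values were seen. Some genes of the lists are not reported here.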

Additional observations from a re-analysis of the deposited data

How the results depend on the processing

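The number of members called was recomputed under each alternative. The number called over all genes also differed between fits and is not given here, so these counts do not set the members apart from other genes. Without a filter on low counts it was 5 rather than 3 for D.f. extract against PBS in the RNase III set and 2 rather than 1 for D.f. extract with RNase III against D.f. extract. With DESeq2 it was 3, 2 and 2 rather than 0 for D.f. extract with RNase III against PBS, D.f. extract against PBS in the knockout, and knockout against wild type. With 1 fit over 12 libraries it was 0 rather than 1 for D.f. extract with RNase III against D.f. extract and 1 rather than 2 for D.f. extract against PBS in wild-type lung of the knockout set. Without the set term it was 1 rather than 4 over both sets. Leaving out 1 library gave 2 to 5 for D.f. extract against PBS in the RNase III set, 0 to 3 for D.f. extract with RNase III against PBS, 0 to 2 for D.f. extract with RNase III against D.f. extract, 0 to 5 and 0 to 3 for D.f. extract against PBS in wild type and knockout, 0 to 4 for knockout against wild type, 0 to 3 for the interaction and 2 to 4 over both sets. In the knockout set the higher counts came without knockout D.f. replicate 5 or 6 and the counts of 0 without wild-type D.f. replicate 3 or 4. Where a group kept 1 library, it was assumed to vary like the others.

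Of 400 recomputed results, 321 kept direction and call, 43 passed that had not, 22 no longer passed and 14 changed sign, all 14 without 1 library. The range over left-out libraries, on the log2 scale, for each gene that changed sign was as follows. For D.f. extract with RNase III against PBS it was -0.41 to 3.46 for Chi3l4 and -0.50 to 1.07 for Retnla. Against D.f. extract it was -1.99 to 1.06 for Chi3l4 and -0.31 to 0.19 for Chia. In the knockout set it was -0.31 to 0.16 for Chi3l3 with D.f. extract in the knockout, -0.35 to 0.22 for Chi3l1 and -2.74 to 0.10 for Timp1 between the genotypes, and -2.44 to 0.37 for Timp1 in the interaction. Over both sets it was -0.57 to 0.16 for Chia. The cause was not tested. No paired analysis was possible because every library of a set has its own replicate number, so the groups compared share none. Depth limits Chi3l4, with 0 to 91 reads per library.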
